A study of Mus musculus with 4 samples.

Results

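The effect of the EGFP sort was compared between trachea and stomach, gene by gene, in Tas2r143-reporter mice. For each gene the log2 ratio of the EGFP library to the Tomato library was taken in each tissue as log2((EGFP + 1)/(Tomato + 1)), and the stomach ratio was subtracted from the trachea ratio. Genes entered when they reached 200 normalized counts in at least 1 library of each tissue, which 5668 of 48587 gene symbols did. A further 2141 symbols reached that level in the trachea alone and 1878 in the stomach alone, and these were not compared. A ratio of 2 or more, which is a 4-fold difference, was taken as higher and a ratio of -2 or less as lower.

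The mice carried a CreERT2 transgene driven by the Tas2r143 promoter and a Rosa26 reporter (Tas2r143-CreERT2;Rosa26flox-mT-stop-flox-mG) on a C57BL/6 background. After tamoxifen, cells in which the promoter drives Cre, and any cells that descend from them, switch from membrane Tomato to EGFP for good, so EGFP marks a history of promoter activity in a transgenic line and not a cell type. Tamoxifen was injected daily over 5 days, and organs were collected when a further 5 days had passed. Cells of both sorts, in both tissues, came from treated mice, and no untreated or Cre-negative group was analysed here. EGFP-positive cells were sorted without the epithelial surface protein EpCAM, whereas the Tomato-positive sort was restricted to EpCAM-positive, EGFP-negative cells. Each of the 4 libraries held cells pooled from 3 mice, with 1 library per sort and tissue. There was therefore no replicate, no test across mice could be made, and the counts below rest on a rule of size. In such sorted pools fewer cells of a type and less RNA per cell cannot be told apart.

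The tissue was taken from the sample titles and the column names, since the tissue entry of each sample names the other organ. Most markers followed the titles. In the order trachea EGFP, trachea Tomato, stomach EGFP and stomach Tomato, which is kept throughout, the airway club cell gene Cyp2f2 had 8937, 337775, 0 and 69 normalized counts, and the gastric pit cell gene Gkn1 had 10, 2, 55128 and 468388. The gastric lipase gene Lipf, taken here as a chief cell marker, had 924, 53408, 0 and 0 and went against the titles. So did the club cell gene Bpifb1, with 451, 7771, 5489 and 45309. Summed over the lists, 13 club cell genes had 71715, 1566634, 6308 and 49363 normalized counts, 12 pit cell genes 20497, 23517, 247649 and 1042145, and 9 chief cell genes 957, 53586, 236694 and 3139395. All 3 sums were thus higher in the organ of the title in both sorts. If the organs were exchanged, every difference would change its sign, and the genes that moved the same way in both tissues would stay the same. The libraries held 9.98, 14.87, 13.63 and 15.43 M normalized counts, with 11522 to 16174 genes above 0. The gaps between low values put a single read at 1.61 normalized counts in the trachea EGFP library and at 0.786 to 0.816 in the others. By this estimate the trachea EGFP library rested on about 6.2 M reads assigned to genes and the others on 17.3 to 18.9 M. The number of reads sequenced is a different measure. A level of 3 reads was taken as the floor of detection, which was 4.83 normalized counts in the trachea EGFP library and 2.36 to 2.45 in the others. Intervals given for the differences of single genes join the outer bounds of the exact binomial 95% intervals of the estimated reads in each tissue. Such intervals are wider than 95% intervals of the difference. They cover counting error only, since the cDNA was amplified by PCR without molecular identifiers.

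Tuft cells, which are called brush cells in the airway, are rare epithelial cells with apical microvilli that sense luminal compounds. They use the G proteins, phospholipase and cation channel of the taste cascade, release the cytokine IL-25, leukotrienes and in some organs acetylcholine, and need the transcription factor Pou2f3. The same organs hold other rare cells, among them neuroendocrine cells in the airway and enteroendocrine cells in the stomach, which store peptide hormones in granules.

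In the trachea 1090 of the 5668 genes (19.2%) were higher in the EGFP library and 1337 (23.6%) were lower. In the stomach 599 (10.6%) were higher and 651 (11.5%) were lower. Higher in both tissues were 285 genes, or 5.03% of those compared, and lower in both were 380 genes, or 6.7%. The 285 genes made up 26.1% of the genes higher in the trachea and 47.6% of those higher in the stomach. The 380 genes made up 28.4% of the genes lower in the trachea and 58.4% of those lower in the stomach. Opposite ways went 201 genes. Of these, 89 (1.57%) were higher in the trachea and lower in the stomach, and 112 (1.98%) were lower in the trachea and higher in the stomach. The remaining 4802 genes (84.7%) were past the limit in 1 tissue or in none. With the libraries scaled to the same total, the 285 genes higher in both tissues and 380 lower in both became 350 and 341. Leaving immunoglobulin genes out of that total gave 397 and 319. Scaling by the upper quartile gave 255 and 405.

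The difference itself was 2 or more for 1143 genes (20.2%) and -2 or less for 1421 genes (25.1%). With the libraries scaled to the same total these counts were 1325 and 1211, and without immunoglobulin genes 1229 and 1307. Which side held more genes thus depended on the scaling. Ratios spread more widely in the trachea, with an SD of 3.98 over genes, than in the stomach, with an SD of 2.20. Over the 5668 genes the ratios of the 2 tissues had a Pearson correlation of 0.36 and a Spearman correlation of 0.27. This is a description over genes of 4 libraries that differ in depth, and genes are not independent replicates. Just inside the limit lay Sox9, with ratios of 3.34 in the trachea and 2.01 in the stomach, and Angel2, with 6.19 and 2.02. Just outside lay Nsdhl, with 4.55 and 1.99, and Ufm1, with 1.99 and 2.29.

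**Figure D1:**
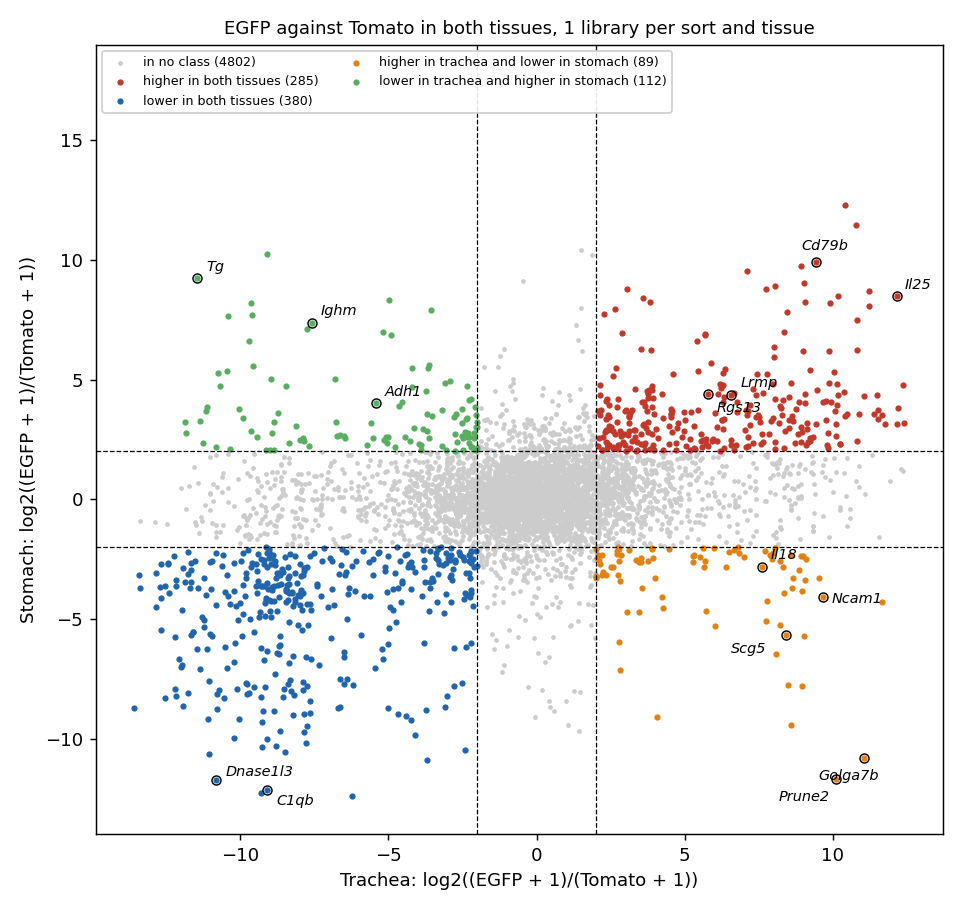
Log2((EGFP + 1)/(Tomato + 1)) in the trachea (x axis) and the stomach (y axis) for the 5668 genes compared. Each point is a gene, dashed lines mark 2 and -2, colors give the class, and circles mark named genes. The 285 red and 380 blue points lie in the corners of equal direction, and the 89 orange and 112 green points in the opposite corners, with Golga7b and Prune2 farthest toward the lower right and Tg toward the upper left.

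Of the 5 genes chosen to mark this comparison, 2 were higher in the EGFP library of both tissues and 3 went opposite ways. Lrmp, which encodes an endoplasmic reticulum membrane protein first described in lymphoid cells, lies at chr6:145115653-145174934 on the plus strand of GRCm38. It had 109136, 1150, 59729 and 2875 normalized counts. Both EGFP libraries stood far above both Tomato libraries, and the EGFP to Tomato fold was 94.9 in the trachea and 20.8 in the stomach. The difference of the log2 ratios was 2.19 (interval 2.07 to 2.32). Rgs13, a regulator of G protein signaling at chr1:144138654-144177372 on the minus strand, had 17643, 322, 38751 and 1852 normalized counts. Its folds were 54.8 and 20.9, and the difference was 1.39 (1.18 to 1.60). The EGFP level of Rgs13 was lower in the trachea than in the stomach, and so was the Tomato level, by more.

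Ncam1, a neural cell adhesion molecule at chr9:49502136-49798925 on the minus strand, had 813, 0, 139 and 2405 normalized counts. It was listed at 0 in the trachea Tomato library, and in the stomach the Tomato library held the higher level. Its ratios were 9.67 and -4.10, where the first depends on the pseudocount. Scg5, a secretory granule chaperone of the prohormone convertase Pcsk2 at chr2:113776362-113829121 on the minus strand, had 338, 0, 35 and 1832 normalized counts, with ratios of 8.41 and -5.67. Il18, which encodes an inflammasome-dependent cytokine and lies at chr9:50554827-50581840 on the plus strand, had 390, 1, 194 and 1373 normalized counts, with ratios of 7.61 and -2.82. In all 3 genes the tissues differed more in the Tomato libraries than in the EGFP libraries. The trachea Tomato level of each was under the floor, so the size of the Tomato difference depends on the pseudocount. For Ncam1 the log2 level of the trachea minus that of the stomach was 2.54 in the EGFP libraries and -11.23 in the Tomato libraries.

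In the stomach, the summed level of endocrine cell markers was higher in the Tomato library, as were the levels of Ncam1 and Scg5. In the trachea most of these markers were listed at 0, in the EGFP library 18 of 23 and in the Tomato library 17, so few could be compared there. Of 23 enteroendocrine and neuroendocrine genes, 1, Bex2, reached the minimum in both tissues and was in no class. Bex2 had 393, 103, 95 and 327 normalized counts, with ratios of 1.92 and -1.77 that had the signs of Ncam1 and Scg5. The summed level of all 23 was 494, 691, 1228 and 271343 normalized counts. Chga, the chromogranin of endocrine granules, was listed at 0 in 3 libraries and had 88713 normalized counts in the stomach Tomato library. The ghrelin gene Ghrl had 0, 0, 13 and 90866. The part of these cells in the stomach ratios of Ncam1 and Scg5 was not tested.

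**Figure D2:**
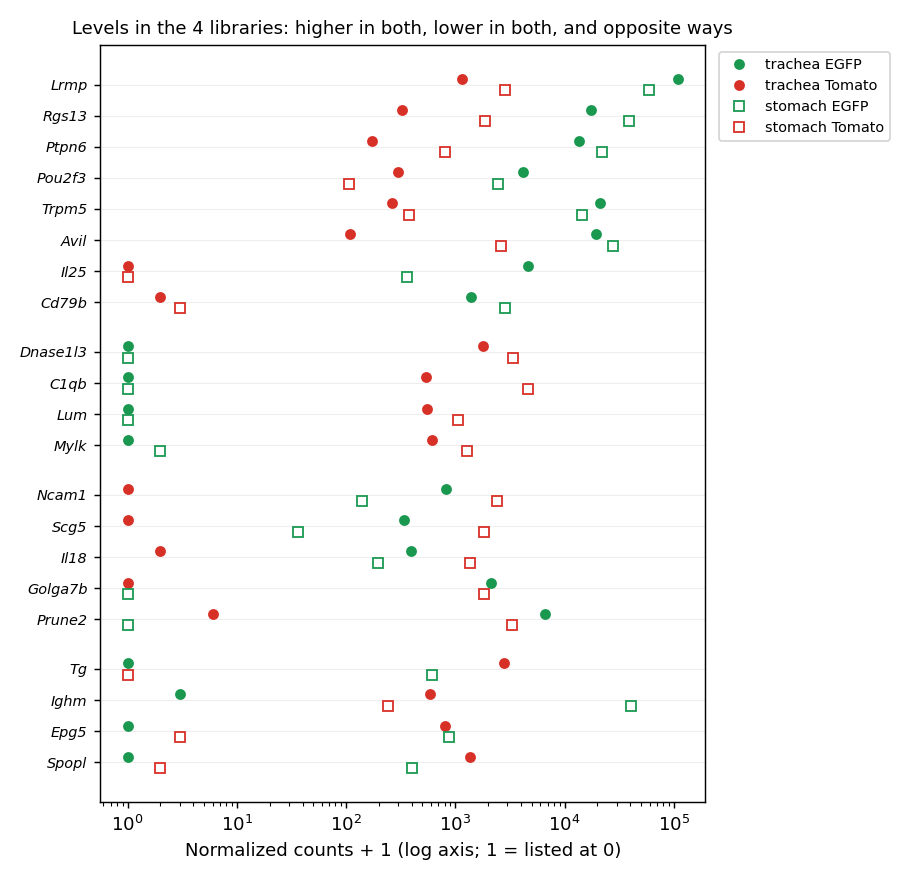
Normalized counts + 1 (log axis) in the 4 libraries for 8 genes higher in both tissues, 4 lower in both, 5 higher in the trachea and lower in the stomach, and 4 of the reverse kind. Filled circles are trachea, open squares stomach, green EGFP and red Tomato, 1 library each. A value at 1 is listed at 0. In the 8 upper genes both green symbols lie right of both red ones, and in the genes from Ncam1 down the order of green and red is reversed between circles and squares.

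The genes higher in both tissues were led by genes at or near 0 in both Tomato libraries, so that the rank rests on the EGFP level and the pseudocount. Il25, the cytokine by which tuft cells alert type 2 immune cells, lies at chr14:54932695-54935837 and had 4608, 0, 359 and 0 normalized counts. Tas1r3, the shared subunit of the sweet and umami taste receptors, had 2396, 0, 271 and 0. Both were listed at 0 in both Tomato libraries, and their EGFP levels were higher in the trachea. Map1a, a microtubule-associated protein, had 262, 0, 484 and 0, and the sorting nexin Snx32 had 533, 0, 300 and 0. Rnf223, a RING finger gene, had 950, 0, 292 and 0. Among the 12 leading genes were also 4 predicted genes named only by number, Gm12446, Gm43413, Gm19817 and Gm28874, with 358 to 3358 normalized counts in the EGFP libraries and 0 to 7 in the Tomato libraries.

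The other 3 of these 12 belong to B cells and plasma cells. Cd79b, a subunit of the B cell receptor, had 1386, 1, 2855 and 2 normalized counts. The variable gene segment Igkv10-94 had 1747, 0, 5654 and 1, and Ighv1-9 had 1362, 0, 5040 and 0. Reads that align to several places were excluded, which can remove reads of near-identical segments, so the levels of single segments are uncertain. Of 14 B and plasma cell genes, 6 were at the minimum in both tissues, of which 4 were higher in both and 1, Ighm, went opposite ways. Among all genes compared 5.03% were higher in both. The antibody heavy chain Igha had 11389, 3, 669648 and 32337, the light chain Igkc 12790, 948, 530119 and 28372, and the joining chain Jchain 5156, 15, 149752 and 8479. Antibody genes and Jchain took 0.352%, 0.0228%, 12.9% and 0.549% of the 4 libraries, so they were most abundant in the stomach EGFP library, and the whole list of 14 genes summed to 32667, 2312, 1420568 and 71359 normalized counts. The B cell genes Ms4a1 and Fcmr were listed at 0 in every library, and Cd79a was listed at 0 in both trachea libraries. Since only the Tomato sort was gated on EpCAM, the EGFP sort could hold cells other than epithelium, and whether Cre had acted in them was not tested. Of 9 antibody genes compared, 7 were among the 285 genes higher in both tissues, and the other 2 went opposite ways.

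Among lists that had 10 or more genes in the comparison, the tuft cell list had the largest share of members higher in both tissues. Of its 39 genes, 34 were at the minimum in both tissues, 28 of these were higher in both, and 0 were lower in both or went opposite ways. Among all genes compared 5.03% were higher in both. The median ratio over the 34 genes was 5.62 in the trachea and 3.99 in the stomach, beside -0.18 and 0.04 over all 5668 genes. Several of these genes define tuft cells in both organs, and the list was not chosen independently of these libraries. Trpm5, the cation channel of the taste cascade, had 21065, 265, 14548 and 376 normalized counts. Pou2f3, the transcription factor that tuft cells need, had 4148, 300, 2484 and 105, and its fold was lower in the trachea, at 13.8, than in the stomach, at 23.7. Dclk1, a microtubule-associated kinase in wide use as a tuft cell marker, had 6888, 86, 33844 and 2049, with folds of 80.1 and 16.5. Its EGFP level was higher in the stomach, but its ratio was higher in the trachea by 2.26 (1.94 to 2.63).

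There were 6 tuft cell genes at the minimum that were not higher in both, namely Hpgds, Hmx2, Cd24a, Ascl2, Krt18 and Cd47, which are listed here because they are the remainder and not for a rule of size. In each of them the ratio was above 0 in both tissues. Hpgds, the prostaglandin D synthase, had 549, 346, 5529 and 471 normalized counts, so that it passed the limit in the stomach with a ratio of 3.55 and not in the trachea with 0.66. The homeobox gene Hmx2 had 288, 78, 1199 and 0. The epithelial keratin gene Krt18 had 79635, 20834, 199950 and 51187, with ratios of 1.93 and 1.97 that lay close to the limit in both tissues.

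Of 18 genes of the taste transduction list, 8 were at the minimum and 5 of these were higher in both tissues, beside 5.03% of all genes compared. The 5 were Tas1r3, Gnat3, Gng13, Plcb2 and Trpm5, which run from receptor to channel. The other 3 were Gnb1, Gnai2 and the calcium release channel gene Itpr3, which had ratios of 2.85 and 0.02. The G protein subunit gene Gnat3, or gustducin, had 13865, 524, 3685 and 473 normalized counts, with folds of 26.5 and 7.79. Gng13, its gamma partner, had 5721, 78, 2506 and 89, with folds of 73.3 and 28.2. The phospholipase Plcb2 had 1575, 358, 438 and 15, with folds of 4.40 and 29.2. In Gnat3 and Gng13 the ratio was higher in the trachea and in Plcb2 it was lower, with a difference of -2.64 (-3.69 to -1.92). The bitter receptor Tas2r126 was under the minimum in the stomach, with 746, 0, 82 and 20, and so was the acetylcholine synthase Chat, with 1137, 162, 75 and 0.

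Enzymes that make leukotrienes and prostaglandins were among the genes higher in both tissues. Of 11 genes at the minimum of 17 listed, 4 were higher in both, beside 5.03% of all genes compared, and 0 were lower in both or opposite. Alox5, the 5-lipoxygenase, had 11771, 147, 18046 and 937 normalized counts, and its partner Alox5ap had 7462, 1098, 16819 and 919. Ltc4s, the leukotriene C4 synthase, had 7363, 27, 8054 and 440. The EGFP levels of Ltc4s lay near each other in both tissues, while the Tomato level was 27 in the trachea and 440 in the stomach, and the difference of its ratios was 3.85 (3.29 to 4.58). Ptgs1, the cyclooxygenase 1, had 5977, 591, 11233 and 463, with folds of 10.1 and 24.3.

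Signaling proteins known from immune cells were also compared. Of 33 listed genes, 25 were at the minimum, and of these 16 were higher in both tissues and 1, Coro1a, went opposite ways. Among all genes compared 5.03% were higher in both. The phosphatase Ptpn6 had 13609, 172, 21888 and 808 normalized counts. The kinase gene Matk had 10529, 1, 1893 and 69, so that it was near 0 in the trachea Tomato library. The diacylglycerol kinase Dgki had 328, 0, 1524 and 11. Ptprc, which encodes the leukocyte surface phosphatase CD45, had 338, 1, 1051 and 768, with ratios of 7.41 and 0.45. It is given here for its role and was not picked by the rule for named genes.

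Among 33 transcription factors of tuft and related lineages, 10 were at the minimum and 4 of them were higher in both tissues, beside 5.03% of all genes compared. The 4 were Pou2f3, Spib, Nfatc1 and Sox9. Spib, an Ets factor of lymphoid and tuft cells, had 3104, 20, 8271 and 537 normalized counts. Sox9 had 38269, 3777, 36316 and 9002, so the EGFP levels were nearly equal and the Tomato levels differed. Of 12 genes of microvilli and actin bundles at the minimum, 4 were higher in both. The actin bundling protein genes Avil and Espn had 19477, 107, 27919 and 2598, and 3810, 26, 5352 and 412. The microvillar protocadherin Cdhr5 had 560, 0, 2752 and 358.

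**Figure D3:**
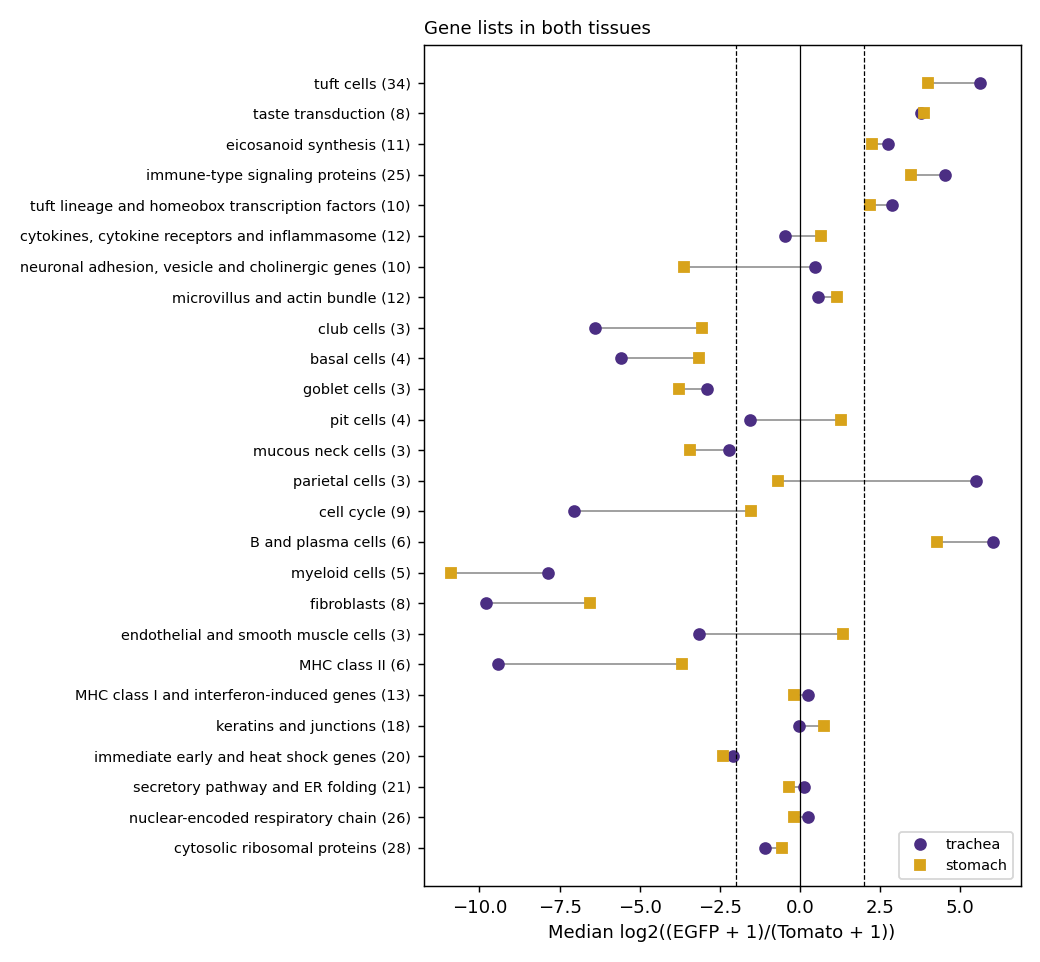
Median log2((EGFP + 1)/(Tomato + 1)) of each gene list that had 3 or more genes in the comparison (numbers in brackets), in the trachea (circles) and the stomach (squares). Dashed lines mark 2 and -2. The tuft cell list lies at 5.62 and 3.99 and fibroblasts at -9.81 and -6.55. The parietal cell list, at 5.50 and -0.67, has the widest gap between tissues, but rests on 3 of 12 listed genes. All 3 reached the minimum in the trachea through the EGFP library alone, so nothing is read from this gap.

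Promoters of the genes higher in both tissues were searched for the octamer ATGCAAAT, a sequence bound by POU domain factors such as Pou2f3, on either strand and from 250 bases before to 50 bases after the start site (RefSeq, GRCm38.p6). Of the 285 genes, 201 had a promoter in the table, with 283 promoters, and 7 of these promoters (2.47%) held the octamer. Of all 32851 promoters 1.74% held it, and of the 5637 promoters of the genes compared 1.47%. The genes lower in both tissues had it in 4 of 362 promoters (1.1%), those higher in the trachea and lower in the stomach in 2 of 75 (2.67%), and those lower in the trachea and higher in the stomach in 1 of 103 (0.971%). A match describes the letters and is neither a binding site nor a cause, and with so few matches nothing particular to a class is read from them. The promoters of Kctd12 and Ly6g6d are shown because Kctd12 had the largest smaller ratio of the 7 genes and Ly6g6d is 1 of 2 genes, with 1810046K07Rik, that had the octamer at 2 places, with the octamer in capitals and the sequence written on the strand of the gene. In Ly6g6d the octamer is on the opposite strand and reads ATTTGCAT.
Kctd12 (chr14:102982588-102982887, minus strand): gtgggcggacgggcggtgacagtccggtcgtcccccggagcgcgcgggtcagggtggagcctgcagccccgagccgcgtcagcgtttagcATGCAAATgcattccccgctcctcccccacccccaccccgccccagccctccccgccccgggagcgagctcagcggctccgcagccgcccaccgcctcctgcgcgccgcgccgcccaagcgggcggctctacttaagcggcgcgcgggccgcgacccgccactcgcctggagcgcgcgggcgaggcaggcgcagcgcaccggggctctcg
Ly6g6d (chr17:35081190-35081489, minus strand): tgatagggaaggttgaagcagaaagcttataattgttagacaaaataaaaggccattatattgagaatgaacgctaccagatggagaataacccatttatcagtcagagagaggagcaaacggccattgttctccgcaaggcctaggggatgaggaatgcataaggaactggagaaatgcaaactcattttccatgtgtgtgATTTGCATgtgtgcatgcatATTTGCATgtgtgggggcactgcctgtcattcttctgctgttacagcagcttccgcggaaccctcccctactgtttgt
Kctd12, an auxiliary subunit of GABA-B receptors, had 4932, 28, 5551 and 271 normalized counts. Ly6g6d, a Ly6 family gene, had 1002, 1, 650 and 93. Both had higher levels in both EGFP libraries than in either Tomato library.

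Among the 10 leading genes lower in both tissues, C1qb and C1qc are on the myeloid cell list and Lum and Mgp on the fibroblast list, and the other 6 are on no cell type list. Dnase1l3, a secreted nuclease, had 0, 1802, 0 and 3401 normalized counts. The complement genes C1qb and C1qc had 0, 542, 0 and 4611, and 0, 612, 0 and 1318. The matrix genes Lum and Mgp had 0, 552, 0 and 1048, and 0, 2192, 0 and 580. The 10 leading genes, which also included Serping1, Rab7b, Ptafr, Mylk and Lzts1, were listed at 0 in the trachea EGFP library, and in the stomach EGFP library they had 0 to 1 normalized counts. Because the trachea EGFP library was the least deep, a level of 0 there is compatible with up to 4.83 normalized counts.

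Connective tissue and myeloid genes were thus found in the Tomato libraries although that sort was gated on EpCAM. Of 8 fibroblast genes at the minimum of 12 listed, 8 were lower in both tissues, and the list summed to 1417, 59922, 1094 and 50969 normalized counts. Of 5 myeloid genes at the minimum of 14 listed, 5 were lower in both, and the list summed to 850, 42213, 15 and 18635. The collagen genes Col1a1 and Col1a2 had 0, 3982, 86 and 10478, and 0, 1454, 46 and 3419. The lysozyme gene Lyz2 had 470, 35491, 0 and 5413, so that it alone made up most of the myeloid sum in both trachea libraries. Of 6 genes for antigen presentation on MHC class II, 4 were lower in both. Among all genes compared the share lower in both was 6.7%. Genes at or near 0 in an EGFP library, such as C1qb and Col1a1, reached the minimum in that tissue through the Tomato library alone. Such genes had to be lower there by the rule, so nothing is read from these shares. H2-Aa had 2, 8389, 70 and 5449, and H2-Ab1 372, 10812, 332 and 8231. Whether fibroblasts or myeloid cells were in the Tomato sort, and what part they had in the genes lower in both tissues, was not tested.

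Of 9 cell cycle genes at the minimum, 3 were lower in both tissues, beside 6.7% of all genes compared. The cyclin gene Ccnb2 had 0, 1985, 8 and 478 normalized counts, the reductase subunit Rrm2 0, 336, 51 and 970, and the kinase Cdk1 0, 324, 53 and 629. These 3 genes reached the minimum in the trachea through the Tomato library alone and had to be lower there by the rule. Immediate early and heat shock genes, which also respond to tissue dissociation, were lower in both in 8 of 20 genes, with median ratios of -2.08 and -2.39. Fosb had 229, 2287, 39 and 347, and the heat shock genes Hspa1a and Dnajb1 had 209, 1595, 511 and 4909, and 269, 12313, 899 and 5107. The part of handling in these ratios was not tested.

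Cell types that each organ has for itself could be compared in few genes. Of 13 club cell genes 3 were at the minimum in both tissues, of 12 pit cell genes 4, and of 9 chief cell genes 0. Agr2, a disulfide isomerase of mucus-secreting cells, had 103, 3022, 932 and 12663 normalized counts and was lower in both. Tff2, a trefoil peptide, had 369, 2769, 1346 and 26179 and was lower in both as well. The aldehyde dehydrogenase gene Aldh1a1 had 55, 23075, 719 and 698, so that it was lower in the trachea, with a ratio of -8.69, and near 0 in the stomach, with 0.04. The gastric proton pump gene Atp4a had 749, 19, 2102 and 4906, with ratios of 5.23 and -1.22, and the potassium channel gene Kcnq1 had 1998, 37, 409 and 71, with ratios of 5.72 and 2.51. Both genes reached the minimum in the trachea through the EGFP library alone. The ratios of this paragraph set the EGFP sort against the EpCAM-positive Tomato sort of the same organ, so the Tomato background differs between the organs.

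The genes for general cell functions that were examined were in no class. Of 28 ribosomal protein genes, 26 genes of the respiratory chain and 21 genes of the secretory pathway and ER folding at the minimum, 0 were in any class. Among all genes compared 15.3% were in a class. Past the limit in a single tissue were 2 secretory pathway genes, higher in the trachea. Of the ribosomal genes, Rpsa was lower in the trachea, at -2.05, and Rps2 in the stomach, at -2.44. The median ratios were -1.09 and -0.55 for ribosomal proteins and 0.24 and -0.18 for the respiratory chain. Of 18 genes of keratins and junctions 0 were in any class, but 1 was higher and 3 were lower in the trachea, and 2 were lower in the stomach. Epcam, the gene of the surface protein used in the Tomato sort, had 5871, 1450, 4648 and 1751 normalized counts, with ratios of 2.02 and 1.41. It was thus higher in the EGFP libraries, which were not sorted on its protein.

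The remaining lists are given by their counts, beside the 15.3% of all genes compared that were in any class. Of 12 cytokine, receptor and inflammasome genes at the minimum, 2 were higher in both tissues, Il25 and the IL-25 receptor gene Il17rb, which had 985, 0, 819 and 48 normalized counts. Lower in both were Il1r1 and Il17re, and Il18 went opposite ways. Of 10 genes of neuronal adhesion and vesicles, Nrgn was higher in both, the vesicle fusion gene Snap25, with 0, 362, 0 and 1496, was lower in both, and Ncam1 and Scg5 went opposite ways. Of 13 genes of MHC class I and the interferon response 1, Gbp3, was lower in both. Lower in both were also 3 of 4 basal cell genes, 2 of 3 goblet cell genes and 1 of 2 mast cell genes, and of 2 ciliated cell genes 0 were in any class. None of 15 T and NK cell genes was at the minimum in both tissues. In the order of the libraries 14, 11, 12 and 13 of them were listed at 0.

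Genes higher in the trachea and lower in the stomach were led by Golga7b and Prune2. Golga7b, a relative of the Golgi protein Golga7, lies at chr19:42247574-42270348 and had 2121, 0, 0 and 1818 normalized counts. Prune2, at chr19:16956118-17223932, had 6653, 5, 0 and 3337. Each was abundant in the EGFP library of the trachea and the Tomato library of the stomach and at or near 0 in the other two. The differences, 21.88 and 21.82, depend on the pseudocount. Limch1, an actomyosin regulator, had 388, 0, 0 and 689, and the lipid desaturase gene Scd1 had 1489, 2, 0 and 220. Nov, a secreted matrix protein, had 807, 2, 6 and 616, and Fermt2, an integrin activator, had 517, 0, 6 and 366. The uncharacterized gene 4930451G09Rik had 359, 0, 0 and 215, and the ubiquitin ligase adaptor Klhl42 had 3233, 0, 12 and 257. Within the neck cell list Galnt6, a mucin glycosyltransferase, had 262, 36, 85 and 924. It was above the floor in all 4 libraries, with ratios of 2.83 and -3.43 and a difference of 6.26 (5.55 to 7.14).

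Genes lower in the trachea and higher in the stomach were led by Tg, the thyroid hormone precursor gene, which had 0, 2805, 607 and 0 normalized counts. It was thus high in the trachea Tomato library and the stomach EGFP library and listed at 0 in the other two. Epg5, which acts in autophagy, had 0, 796, 872 and 2, and Spopl, an adaptor of a ubiquitin ligase, had 0, 1373, 399 and 1. The polarity gene Pard6g had 0, 835, 580 and 5. The gene 6430562O15Rik had 0, 774, 209 and 0. In each of these the trachea EGFP library, the least deep of the 4, was listed at 0.

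Antibody genes entered this class as well. Ighm, the heavy chain of IgM, had 2, 580, 40534 and 242 normalized counts, and the segment Igkv8-27 had 0, 545, 2445 and 1. Igha went the other way in the trachea, being higher in both tissues. Coro1a, an actin regulator of leukocytes, had 0, 557, 440 and 104, with ratios of -9.12 and 2.07. Adh1, the alcohol dehydrogenase that also oxidizes retinol, at chr3:138260991-138290698, is named after its values were seen because it had the highest mean level of all 201 opposite genes. It had 140, 6058, 126534 and 7840 normalized counts, all above the floor, with ratios of -5.43 and 4.01 and a difference of -9.44.

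The ratio can differ between tissues through the EGFP libraries or the Tomato libraries. The difference was therefore split into the log2 level of trachea minus stomach within each sort. Of the 285 genes higher in both tissues, 219 (76.8%) differed more between the Tomato libraries than between the EGFP libraries, and of the 380 lower in both 30.3% did. The rule asks for low Tomato values in the first class and low EGFP values in the second, where log2 levels spread widely near the floor, so nothing is read from these shares. Among genes with the same direction the sizes often differed. Of the 285, 130 (45.6%) had ratios within 2 of each other, 142 had the larger ratio in the trachea by 2 or more and 13 in the stomach. Of the 380, 130 (34.2%) lay within 2 and 226 were lower in the trachea by 2 or more.

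**Figure D4:**
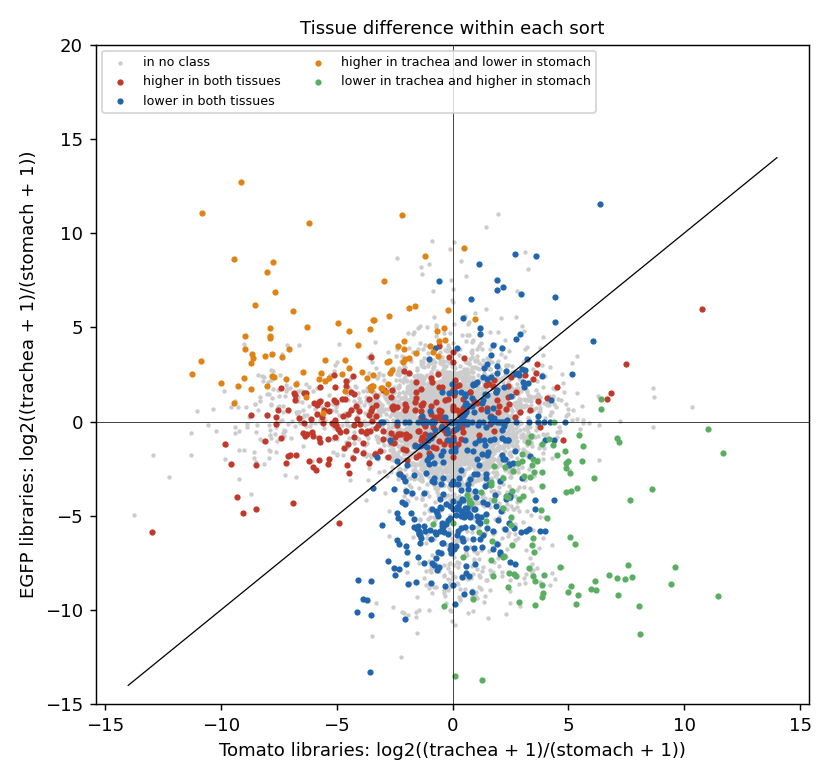
Log2((trachea + 1)/(stomach + 1)) within the Tomato libraries (x axis) and the EGFP libraries (y axis), 1 point per gene, colored by class, with the line of equality. Distance from the line is the difference of the ratios. Red points spread mainly along the x axis and blue points along the y axis, where the rule asks for low Tomato and low EGFP values, respectively.

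Depth and level moved with the classes. In 112 of the 285 genes higher in both tissues (39.3%) at least 1 library was under the floor of 3 reads, which was the trachea Tomato library in 103. In the genes lower in both, 261 of 380 (68.7%) had such a library, which was the trachea EGFP library in 247. The share was 13.1% over all 5668 genes. A gene with a library near 0 that still reached 200 normalized counts in that tissue had to differ by the rule, so this is no finding about the genes. Of the 201 opposite genes, 124 were above the floor in all 4 libraries. When genes were divided into 5 groups of equal size by their mean level, 7.23% of the lowest group and 0.794% of the highest went opposite ways, while 17.6% and 10.9% moved in the same direction. The Pearson correlation of the ratios was 0.33 in the lowest group and 0.53 in the highest. The part of depth in these shares was not tested.

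**Figure D5:**
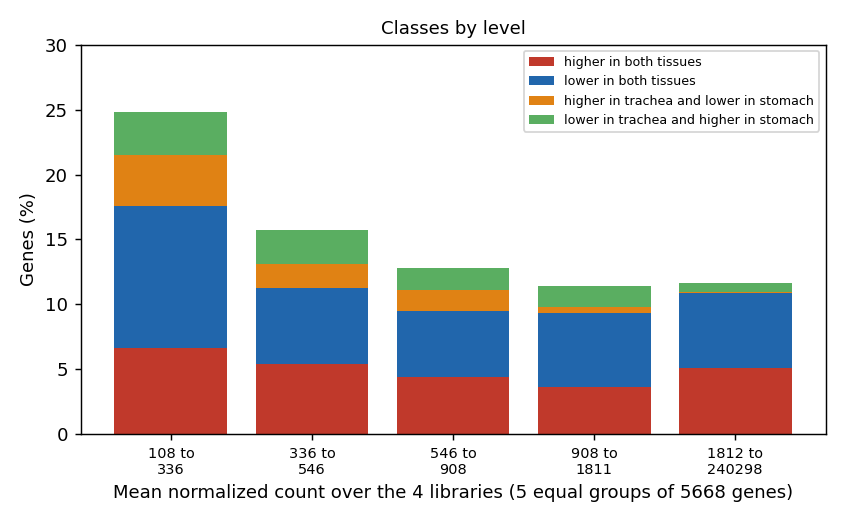
Percentage of genes in each class (y axis) in 5 groups of equal size of the 5668 genes, by mean normalized count over the 4 libraries (x axis). Colors stack the 4 classes. The orange and green parts, which go opposite ways, shrink from 7.23% to 0.794% together, while the red and blue parts fall from 17.6% to 10.9%.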

How the data were processed

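RNA-seq of sorted EGFP-positive and Tomato-positive cells from trachea and stomach was analysed (4 libraries, 1 per sort and tissue). Per the labels and the study's methods, reads were trimmed by the authors (Reaper 13-100), mapped to GRCm38 (STAR 2.4.0a) and assigned to genes by exon (featureCounts 1.4.5-p1), excluding reads of several genes or places. For each gene the authors deposited a signal in normalized counts, rounded to whole numbers. The origin of the factor is not stated in those sources. Such a factor moves the ratios of all genes of a tissue together.

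The file had 48709 lines, and for 116 symbols on several lines the line with the highest sum was kept. Ratios, classes and exact binomial intervals were computed in Python 3.11.15 with pandas 2.3.3, numpy 2.4.6 and scipy 1.17.1, from reads estimated from the spacing of the values 3 to 60. The scripts were tested on simulated libraries. With 1 library per sort and tissue, the 4 values leave no residual degree of freedom for the difference, so no test was run and no p-value is given. The rule that picks the genes uses the same ratios, which are therefore descriptions.

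The genes and the 31 gene lists were chosen with earlier results of these data known. Named are the 5 marker genes, the 12 and 10 leading genes higher and lower in both tissues, 8 of each opposite kind (ranked by the smaller absolute ratio), the 6 largest and 6 smallest differences, genes the study plots for both tissues, and up to 4 genes of each list. Other genes are named as checks of tissue or cell type, after their values were seen. Xist and Y-linked genes were left out, and a few genes picked by this rule are not reported here. Alternatives were another pseudocount, minimum, threshold, scaling, floor and handling of repeated symbols. Promoters came from RefSeq.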

Additional observations from a re-analysis of the deposited data

Results flagged for a closer look

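The following genes were higher in the EGFP library of one organ and lower in that of the other. The difference between the organs was not tested, since each sort and organ had 1 library. Among genes higher in the trachea and lower in the stomach, the trachea log2 ratio minus the stomach log2 ratio was 21.88 for Golga7b, 21.82 for Prune2, 18.03 for Limch1, 16.74 for Scd1 and 16.25 for 4930451G09Rik. It was 15.97 for Klhl42, 14.73 for Fermt2, 14.54 for Nov, 14.08 for Scg5, 13.77 for Ncam1, 10.43 for Il18 and 6.26 for Galnt6. Among genes lower in the trachea and higher in the stomach it was -20.70 for Tg, -19.35 for Igkv8-27, -18.07 for Spopl, -17.82 for Epg5, -17.31 for 6430562O15Rik, -16.30 for Pard6g and -14.98 for Ighm. Galnt6 alone among these genes was above the floor of 3 reads in all 4 libraries.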

How the results depend on the processing

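With a minimum of 50 normalized counts there were 442 genes higher in both tissues, 827 genes lower in both tissues, 251 genes higher in trachea and lower in stomach, 246 genes lower in trachea and higher in stomach, 2030 genes with difference of 2 or more and 2445 genes with difference of -2 or less. In the same order a minimum of 500 gave 161, 182, 24, 52, 506 and 742, no minimum gave 721, 1385, 526, 471, 3553 and 3960, and a threshold of 3 gave 152, 250, 28, 42, 758 and 946. More or fewer genes are compared, or a wider limit is set, by construction. The other 8 settings (pseudocount of 0.1 or 10, same total with or without antibody genes, median of ratios, upper quartile, a floor of 3 reads, repeated symbols summed) kept all 6 counts within 1.5 times. Scaling to the same total moved the median ratio of all genes from -0.18 to 0.40 in the trachea and from 0.04 to 0.22 in the stomach, and that of the difference from -0.21 to 0.18. Differences of 133 single named genes moved past their counting interval in 40 genes with the same total, 37 with a pseudocount of 10, 21 with the same total without antibody genes and 5 with the upper quartile, and in 0 under the other settings that gave them. The difference of Tek, an endothelial receptor kinase, turned from 2.05 to -0.157 with a pseudocount of 10, since it was listed at 0 in the trachea Tomato library. Differences of genes with a library at 0 depend on the pseudocount. No paired analysis was possible because each sort and tissue had 1 library, and no library could be left out. Fewer than 3 reads cannot be told from 0.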

Other observations

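Some genes of the tuft cell and taste lists lay under 200 normalized counts in one organ and so had no part in the comparison. They are named here after their values were seen. Gnb3, a beta subunit of taste G proteins, had 103352, 3053, 13 and 0 normalized counts in the trachea EGFP, trachea Tomato, stomach EGFP and stomach Tomato libraries. It was thus abundant in the trachea and close to 0 in the stomach. Rgs21, a regulator of G protein signaling in taste cells, had 1167, 0, 0 and 0. The taste channel subunits Calhm1 and Calhm3 had 570, 0, 0 and 0, and 638, 0, 0 and 0. The succinate receptor gene Sucnr1 had 1113, 0, 0 and 0. In these 4 genes the trachea EGFP library alone was above 0.

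The reverse was seen for Siglecf, a sialic acid-binding receptor, with 0, 0, 3384 and 99 normalized counts, and for the transcription factor gene Gfi1b, with 0, 0, 2547 and 158. The microvillar genes Myo1a and Eps8l3 had 0, 0, 1129 and 136, and 0, 0, 2897 and 692. These 4 genes were listed at 0 in both trachea libraries and were higher in the EGFP than in the Tomato library of the stomach. These are single libraries, and no difference was tested.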
